A study of Mus musculus with 10 samples.

Results

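The genes described here encode the nuclear subunits of oxidative phosphorylation and were chosen by symbol. They were the rows of the deposited table whose symbol starts with Nduf followed by a, b, c, s or v and a number, is Sdha, Sdhb, Sdhc or Sdhd, or starts with Uqcr or with Cox4 to Cox8, together with Cyc1 and Cycs. Of the 18407 genes in the table, 70 fitted this rule: 38 of complex I, 4 of complex II, 9 of complex III, 18 of complex IV, and cytochrome c itself. ATP synthase (complex V) subunits with an Atp5 symbol and the subunits made from mitochondrial DNA were not analysed here.

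The study grew the NMC line, normal mouse cholangiocytes (the epithelium of bile ducts), for 6 days as 3D double spheroids in 1 of 2 matrices. The laminin-rich matrix was laminin and collagen I mixed 3:1 by volume (5 libraries), and the other was collagen I alone at 1 mg/mL (5 libraries). Collagen I was therefore present in both groups, all cells came from the same line, and no other treatment was applied. Basement membranes are built largely on laminin, whereas collagen I forms the fibres of connective tissue. How the cultures of a group were divided is not stated in the labels; the p-values therefore reflect only how far these samples scatter, which may be technical. Bulk counts cannot tell fewer cells of a type from less RNA per cell.

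In oxidative phosphorylation, electrons from NADH enter the inner mitochondrial membrane at complex I and those from succinate at complex II. They pass through ubiquinone to complex III, then through cytochrome c to complex IV, which reduces oxygen. Complexes I, III and IV pump protons, and the gradient drives ATP synthase. Most subunits are nuclear genes, and they have to be matched to the few made inside the mitochondrion. Transcription factors known to bind many of their promoters include NRF1, the ETS factor GABP and YY1, with PGC-1alpha and ERRalpha as coactivator and nuclear receptor.

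Libraries held 4424725 to 8129979 counts, and a count of 0 allowed a level of up to 0.369 to 0.678 CPM (3 counts, scaled to library size). The 10 cholangiocyte markers summed to 4410 ± 745 CPM in the laminin-rich matrix and 4704 ± 799 CPM in collagen (SD, n = 5 each). All 10 averaged at least 1 CPM over the libraries. Cftr was lowest, at 1.96 ± 0.650 CPM in laminin and 0.832 ± 0.355 CPM in collagen, and was below the filter on low counts. Krt7 was also low, at 3.34 ± 1.62 CPM in laminin and 6.80 ± 3.98 CPM in collagen. Hepatocyte markers summed to 158 ± 20.4 CPM in laminin (135 to 185), against 107 ± 18.2 CPM in collagen (88.5 to 136), with most of it from Hnf4a and Alb and with Cyp3a11 at 0. Fibroblast and stellate markers summed to 680.5 ± 66.8 CPM in laminin and 657 ± 66.6 CPM in collagen, nearly all from Fbln2, with Lrat at 0. The sum hides opposite leanings of low markers. Dcn had 3.47 ± 1.18 CPM in laminin and 8.10 ± 1.26 CPM in collagen (log2 difference -1.20, adjusted p = 0.0697, edgeR). With the length and GC offset described below, Dcn passed at -1.06 (adjusted p = 0.0474, edgeR). Pdgfrb, below the filter, had 3.44 ± 1.88 CPM in laminin and 0.620 ± 0.151 CPM in collagen. Leukocyte markers summed to 4.62 ± 0.867 CPM in laminin and 5.84 ± 1.89 CPM in collagen, with Adgre1 at 0. Endothelial markers summed to 0.578 ± 0.404 CPM in laminin and 0.557 ± 0.327 CPM in collagen, with Cdh5 and Kdr at 0. The part of these cell types in the results below was not tested.

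The library names carry a code letter, whose meaning is not stated. In laminin it is E for replicates 1 to 3 and F for 4 and 5, and in collagen it is B for replicates 1 to 3 and D for 4 and 5. No letter occurs in both matrices, so letter and matrix cannot be told apart. Libraries also differed in how counts depended on transcript length. Over the other genes, log2 CPM changed per doubling of length by -0.01, 0.09, 0.16, 0.16 and -0.10 in laminin replicates 1 to 5, and by 0.17, 0.14, -0.06, -0.36 and -0.18 in collagen replicates 1 to 5. The transcripts of the respiratory subunits are short. The median length of the 62 that could be tested was 892 nt, against 3089 nt over all 10789 genes tested.

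The promoters of 4 members are shown because their genes carry the results below. Sdha and Cycs had the smallest p-values of the matrix comparison, Cox6a1 the smallest after adjustment for length, and Ndufa11 the largest difference between collagen libraries. Each stretch is from RefSeq (GRCm38.p6), reads 5′ to 3′ on the strand of the gene, and ends before its annotated start. Capitals mark matches to the NRF1 motif, which is GCGCA, any base and GCGC, on either strand. Sdha lies at chr13:74350281-74350490 (minus strand), Cycs at chr6:50566570-50566819 (minus), Cox6a1 at chr5:115348982-115349208 (minus) and Ndufa11 at chr17:56717512-56717761 (plus).
Sdha: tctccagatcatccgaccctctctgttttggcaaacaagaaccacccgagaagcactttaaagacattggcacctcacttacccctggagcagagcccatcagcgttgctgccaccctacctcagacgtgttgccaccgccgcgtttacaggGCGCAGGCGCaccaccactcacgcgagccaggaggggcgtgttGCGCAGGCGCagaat
Cycs: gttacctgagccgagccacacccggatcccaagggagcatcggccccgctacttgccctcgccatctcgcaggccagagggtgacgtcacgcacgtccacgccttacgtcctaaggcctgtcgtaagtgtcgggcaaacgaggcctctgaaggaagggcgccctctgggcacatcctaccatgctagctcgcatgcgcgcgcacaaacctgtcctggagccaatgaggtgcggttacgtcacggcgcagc
Cox6a1: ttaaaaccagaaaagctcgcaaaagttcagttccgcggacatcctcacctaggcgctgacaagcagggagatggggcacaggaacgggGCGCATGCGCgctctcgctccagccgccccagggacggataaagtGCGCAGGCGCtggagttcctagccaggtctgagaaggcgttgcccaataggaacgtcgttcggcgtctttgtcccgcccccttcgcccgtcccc
Ndufa11: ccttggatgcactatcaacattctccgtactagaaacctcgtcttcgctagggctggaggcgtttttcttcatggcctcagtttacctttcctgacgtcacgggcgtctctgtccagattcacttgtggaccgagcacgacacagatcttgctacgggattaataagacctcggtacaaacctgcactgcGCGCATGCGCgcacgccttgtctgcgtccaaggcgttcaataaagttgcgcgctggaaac

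The stretches of Sdha and Cox6a1 each held 2 exact NRF1 matches, that of Ndufa11 held 1, and that of Cycs none. A promoter was found for 54 of the 70 members, 50 of them tested. In the 250 bases before the start, 8 of these 50 (16%) held the NRF1 motif, against 3.74% of all 32851 promoters. The ETS motif CCGGAAG, searched on both strands, was also in 8 of 50 (16%), against 6.91% of all promoters. The YY1 motif AAGATGGC was in 0 of 50, against 1.56% of all. The members' shares count tested genes, while the others count every listed promoter, whether or not its gene was tested. The shares are therefore not of like sets. A match, or the lack of one, describes only these exact letters in this window and says nothing of binding. Sites that differ from the motif by a base were not searched for.

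Most respiratory subunits were abundant in these cells. After a filter on low counts, 62 of the 70 members (88.6%) were tested: 36 of complex I, 4 of complex II, 9 of complex III, cytochrome c and 12 of complex IV. Their median level was 123 CPM, against 46.8 CPM over all genes tested. Together the members took 0.734 to 1.01% of all counts in laminin libraries and 0.630 to 1.15% in collagen libraries.

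Levels between genes were compared as CPM per kb of transcript. Cox8a, the ubiquitous form of the smallest subunit of complex IV, was highest, with 837 CPM per kb in laminin and 707 in collagen. Next were Cox4i1, the form of subunit 4 used in most tissues, with 625 CPM per kb in laminin and 573 in collagen, and Cox6a1, the non-muscle form of subunit 6a, with 539 in laminin and 461 in collagen. In complex I the highest were Ndufa4, at 330.2 CPM per kb in laminin and 322 in collagen, and Ndufb8, an accessory subunit, at 323 in laminin and 327 in collagen, which did not differ beyond their spread. Ndufa4 is counted with complex I by its symbol, although the protein has since been placed with complex IV. In complex III the highest was Uqcrh, the hinge protein, at 321 CPM per kb in laminin and 325 in collagen. Sdhd, a membrane anchor, led complex II at 136 CPM per kb in laminin and 123 in collagen. These levels depend on the transcript chosen for each gene, and that of Ndufb2 (4371 nt) had no principal isoform in the annotation.

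**Figure D1:**
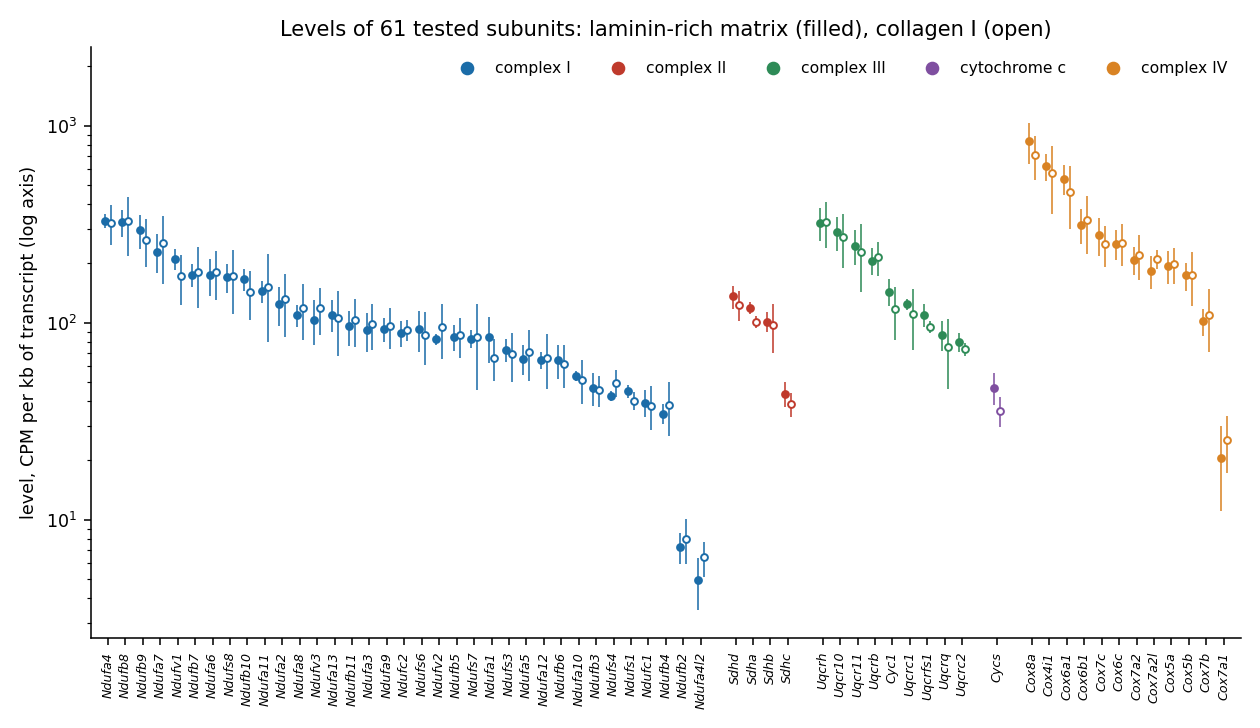
Level of 61 of the 62 tested subunits in CPM per kb of transcript (log axis), ordered by level within each complex; filled points are the mean of 5 laminin libraries, open points the mean of 5 collagen libraries, and bars the SD. Filled and open points lie close together for nearly every gene, and Cox8a, Cox4i1 and Cox6a1 are highest.

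The paralogues known from other tissues or from hypoxia were low or at 0. Cox4i2, the form of subunit 4 known from lung, had at most 1 count in any library, and the testis forms Cox6b2, Cox7b2 and Cox8c had at most 1, 0 and 0. The muscle form Cox8b was at 0 and Cox6a2 had at most 13 counts. Cox6a2 made up 0.306% ± 0.195 of the summed Cox6a1 and Cox6a2 level per kb in laminin and 0.271% ± 0.138 in collagen (SD, n = 5 each). Cox7a1, the muscle form of subunit 7a, was the best represented of them. It had 10.1, 7.26, 3.84, 5.84 and 13.4 CPM in laminin replicates 1 to 5, and 6.92, 8.93, 7.90, 14.9 and 11.2 CPM in collagen replicates 1 to 5. It was 8.74% ± 2.95 of the summed Cox7a1 and Cox7a2 level per kb in laminin and 10.2% ± 1.37 in collagen. Ndufa4l2, a paralogue of Ndufa4 known as a HIF-1 target, was 1.48% ± 0.468 of its pair in laminin and 2.00% ± 0.402 in collagen. None of these shares had ranges that separated the matrices.

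Ndufs5, an accessory subunit of complex I, was listed at 0 in every library. Of its 50-base stretches, 31.1% also occur in another annotated gene, BC002163, and whether its reads were counted elsewhere was not tested. Ndufb4c had at most 20 counts, and all of its 50-base stretches occur in other genes, Ndufb4 among them. Sharing also touched tested members. It was highest for Cox7c at 53%, Uqcrb at 43.2%, Ndufb4 at 37%, Ndufs3 at 35.8% and Cycs at 28.5%, whose sequence recurs in 76 other genes. Lower shares were found for other members, among them Cox6a1 at 12.3% and Ndufa11 at 7.86%. The counts of these genes are uncertain to that extent. Several members overlap exons of a gene on the opposite strand, among them Cox4i1, Ndufs1, Ndufs3, Ndufa4l2, Ndufa11 and Uqcrc2. No source used here says whether counting used the strand.

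The main question of the design was whether the laminin-rich matrix changed expression relative to collagen I. No respiratory subunit passed the test: 0 of 62 were called higher or lower (edgeR quasi-likelihood test, Benjamini-Hochberg adjusted p under 0.05). Over all genes tested, 0.148% were called (0.139% higher and 0.00927% lower), so a count of 0 among 62 is near the background. At an unadjusted p under 0.05, 2 members were higher and 0 lower, against 6.7% of all genes higher and 4.95% lower. DESeq2 and limma-voom also called 0 members, each with 2 at an unadjusted p under 0.05. No member had laminin and collagen ranges that did not overlap (0 of 62), against 3.23% of all genes. The median log2 difference of the members, laminin minus collagen, was -0.01, with 30 of 62 above 0 (48.4%), and that of all genes was 0.01, with 51.7% above 0. Single differences ran from -0.40 for Ndufa4l2 to 0.39 for Cycs. Adjusted p-values ran from 0.332 to 0.995 (edgeR), and the median SE of a member was 0.18, against 0.16 over all genes. Differences of the size of these standard errors could not be detected.

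Cytochrome c, the soluble carrier between complexes III and IV, had the largest positive difference. Cycs (chr6:50562563-50566538, GRCm38) had 155, 138, 169.6, 103 and 164 CPM in laminin replicates 1 to 5, and 90.9, 106, 111, 143 and 107 CPM in collagen replicates 1 to 5. Of the laminin libraries, 3 lay above every collagen library, and laminin replicate 4 lay below 4 of them. The means were 146 ± 26.7 CPM in laminin and 112 ± 19.3 CPM in collagen (SD, n = 5 each). The log2 difference of Cycs was 0.39 (SE 0.15, 1.31-fold), with an adjusted p of 0.344 (edgeR quasi-likelihood), so it did not pass.

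Complex II oxidizes succinate and is also an enzyme of the citric acid cycle. All of its 4 subunits had a difference above 0, with a median of 0.16, and 0 were called. Sdha (chr13:74322254-74350280), the flavoprotein that holds the succinate site, had 368, 333, 364, 313 and 351 CPM in laminin, against 269, 288, 288, 328 and 290.4 CPM in collagen. The groups overlapped only through laminin replicate 4 and collagen replicate 4. Means were 346 ± 22.8 CPM in laminin and 293 ± 21.5 CPM in collagen (SD, n = 5 each), a log2 difference of 0.24 (SE 0.09, 1.18-fold). Its adjusted p of 0.332 was the smallest of any member (edgeR), and its unadjusted p from the same fit was 0.0204. Sdhb, the iron-sulfur subunit, had 121, 114, 105, 102 and 135 CPM in laminin, and 82.6, 89.4, 97.3, 157 and 129 CPM in collagen. The collagen libraries of Sdhb fell on both sides of the laminin ones, 3 below all of them and 1 above. The anchors Sdhc and Sdhd differed by 0.18 (SE 0.13) and 0.14 (SE 0.14).

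In complex III, 7 of 9 subunits had a difference above 0, with a median of 0.13, and 0 were called. Cyc1, the haem-bearing cytochrome c1, had 265, 187, 223, 182 and 236 CPM in laminin, against 128, 130.3, 183, 258 and 193 CPM in collagen. Its log2 difference was 0.29 (SE 0.19), with an adjusted p of 0.58 (edgeR). Uqcrfs1, the Rieske iron-sulfur protein, had 171, 139, 146, 124 and 167 CPM in laminin and 123, 118, 138, 137 and 133 CPM in collagen. It varied little in collagen, at 130.0 ± 8.82 CPM, and 4 of 5 laminin libraries lay above all collagen ones. The Uqcrfs1 difference was 0.20 (SE 0.11, adjusted p = 0.49, edgeR). Uqcrc2, a core protein on the mitochondrial-matrix side, differed by 0.13 (SE 0.10), and Uqcrh by -0.02 (SE 0.18).

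Complex I had a median difference of -0.03, with 14 of 36 subunits above 0 and 0 called. Its 7 core subunits carry the flavin, the iron-sulfur clusters and part of the quinone site, and had a median of 0.07 with 4 of 7 above 0. The 27 accessory subunits, which surround this core, had a median of -0.05 with 9 of 27 above 0. Ndufv1, which binds NADH and the flavin, had 374, 322, 369, 292 and 395 CPM in laminin, against 206, 205, 307, 392 and 320.2 CPM in collagen. Collagen replicates 1 and 2 lay well below every laminin library, while collagen replicate 4 lay just below the highest laminin library. The Ndufv1 difference was 0.29 (SE 0.18, adjusted p = 0.546, edgeR). Its partner Ndufv2 leaned the other way, with 139.7 ± 8.49 CPM in laminin and 161 ± 49.4 CPM in collagen and a difference of -0.20 (SE 0.17). The quinone-module subunits Ndufs7 and Ndufs8 and the core subunit Ndufs3 were within 0.07 of 0.

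Ndufs1, the largest core subunit, had 113, 122, 134, 113 and 116 CPM in laminin, against 115, 120.1, 109, 96.9 and 95.5 CPM in collagen, a difference of 0.16 (SE 0.10). Here the 2 collagen libraries of letter D were the lowest of all 10. Among accessory subunits the smallest p-values were those of Ndufs4 and Ndufa1. Ndufs4, which stabilizes the NADH-binding module, had 75.3, 75.6, 64.6, 72.4 and 72.8 CPM in laminin and 81.2, 70.5, 79.8, 106 and 84.1 CPM in collagen. All collagen libraries but replicate 2 lay above the laminin range, and the difference was -0.22 (SE 0.12, adjusted p = 0.475, edgeR). Ndufa1, a small X-linked subunit of the membrane arm, had 34.4, 32.3, 37.3, 24.1 and 49.5 CPM in laminin and 22.3, 24.3, 25.4, 39.5 and 27.9 CPM in collagen. Its ranges overlapped, and it differed by 0.35 (SE 0.20, adjusted p = 0.523, edgeR).

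Complex IV had a median of -0.02, with 4 of 12 subunits above 0 and 0 called. Cox6a1 (chr5:115345642-115348981) had 335, 284, 279, 252 and 389 CPM in laminin, against 178, 194, 239, 404 and 300.3 CPM in collagen. Collagen replicates 1 to 3 lay below every laminin library and collagen replicate 4 above every one. The Cox6a1 difference was 0.23 (SE 0.21, adjusted p = 0.725, edgeR). Cox4i1 had 522, 443, 429.6, 407 and 588 CPM in laminin and 292, 305, 414, 696 and 487 CPM in collagen. Its collagen libraries again held both the lowest values, in replicates 1 and 2, and the highest, in replicate 4, and the difference was 0.12 (SE 0.22). Cox8a had 460.5 ± 108 CPM in laminin and 389 ± 97.4 CPM in collagen, a difference of 0.24 (SE 0.19). Cox7a2l, which helps join complexes III and IV into supercomplexes, had 244, 181, 164, 165 and 232 CPM in laminin and 198, 204, 243, 255 and 229.9 CPM in collagen. At -0.20 (SE 0.14, adjusted p = 0.616, edgeR) it had the smallest p of complex IV, and its groups overlapped. Among the other paralogues, Cox7a1 differed by -0.31 (SE 0.31), Cox7a2 by -0.09 (SE 0.17) and Cox6b1 by -0.07 (SE 0.20).

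**Figure D2:**
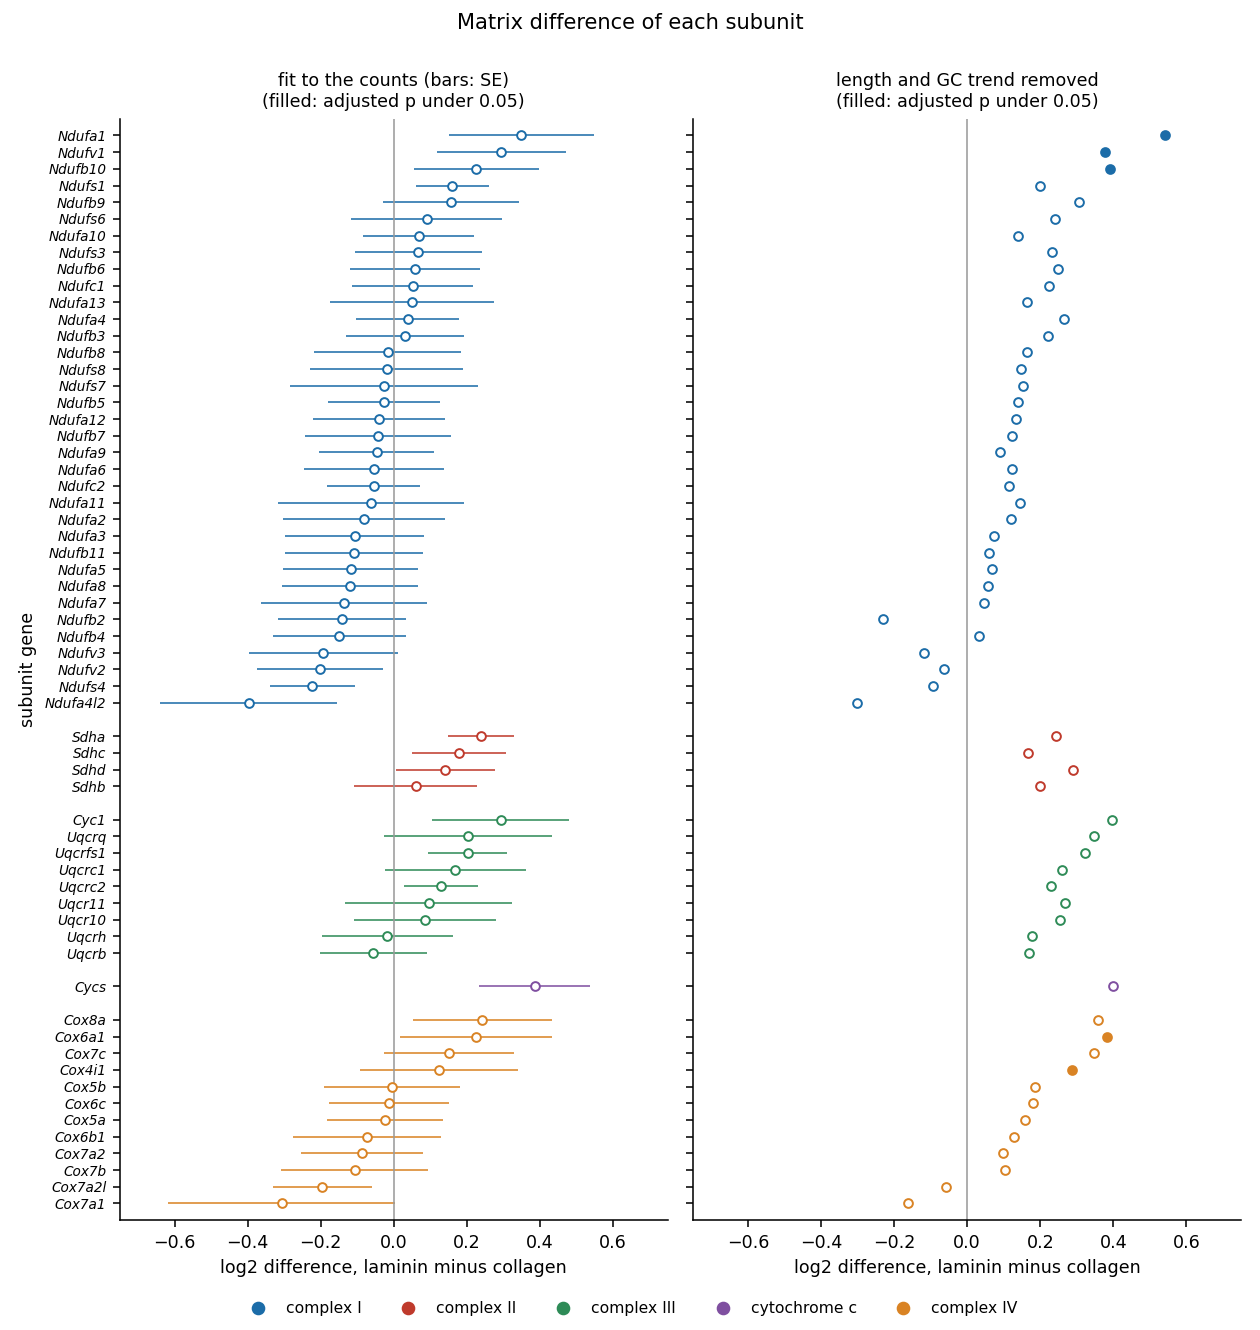
Log2 difference, laminin minus collagen, of 61 of the 62 tested subunits, by complex, in the fit to the counts (bars are the SE) and in the fit with the length and GC offset (no bars); filled points have an adjusted p under 0.05. In the first fit the points lie on both sides of 0 and 0 are filled, while with the offset 54 of the 61 lie above 0 and 5 are filled.

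The spread between collagen libraries was larger than the difference between matrices. Summed over the tested members, laminin replicates 1 to 5 had 9139, 8188, 8213, 7174 and 10342 CPM, against 6299, 6687, 7739, 11542 and 8899 CPM in collagen replicates 1 to 5. Both the lowest sums and the highest sum belonged to collagen. The means were 8612 ± 1191 CPM in laminin and 8233 ± 2108 CPM in collagen (SD, n = 5 each). Collagen replicate 4 was the highest of all libraries for 51 of 62 members (82.3%), against 25.7% of all genes. Collagen replicate 1 was the lowest for 34 members (54.8%, against 12.1% of all genes), and collagen replicate 2 for 16 (25.8%, against 13.1%). Within laminin the median SD of a member was 0.23 on the log2 CPM scale, against 0.20 for all genes, and within collagen 0.37, against 0.27.

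**Figure D3:**
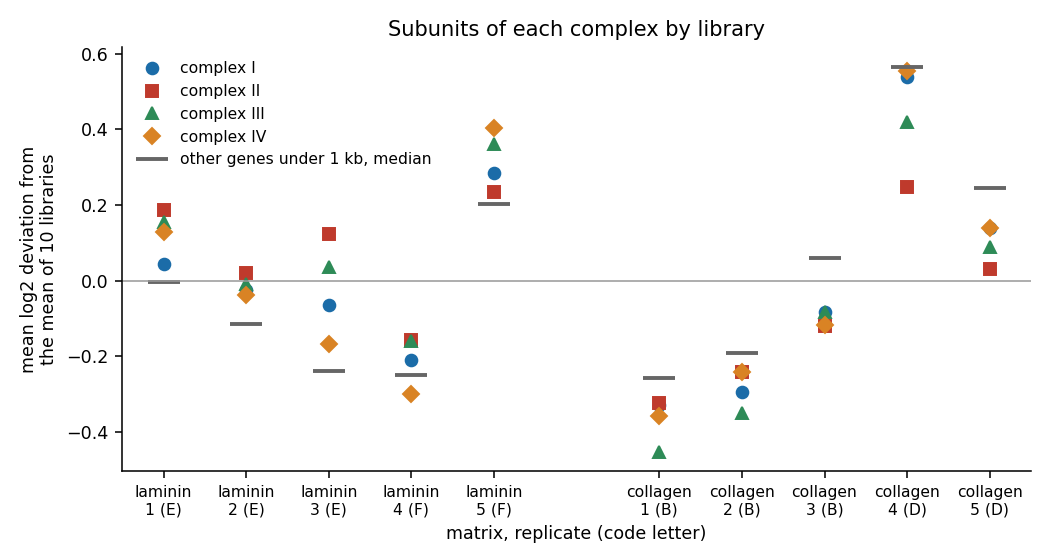
Mean log2 deviation of the tested subunits of complexes I to IV from their mean over 10 libraries, by matrix, replicate and code letter; grey bars are the median deviation of other genes with transcripts under 1 kb. The complexes lie close together in most libraries, and collagen replicate 4 is highest and collagen replicate 1 lowest for each of these complexes.

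In collagen, the respiratory subunits were higher on average in the libraries of letter D than in those of letter B. The B libraries were not alike. Over the genes tested, replicate 3 differed less from replicate 5 of letter D (chi-square per degree of freedom 6.43) than from replicates 1 and 2 (21.4 and 19.3). With the code letter as the term of the fit, 25 of 62 members rose in D relative to B and 0 fell (edgeR quasi-likelihood, adjusted p under 0.05). Over all genes 5.42% rose and 10.4% fell. The median member difference was 0.58, and 61 of 62 lay above 0. The members that rose were 15 of 36 in complex I, 1 of 4 in complex II, 4 of 9 in complex III and 5 of 12 in complex IV. Ndufa11, an accessory subunit of the membrane arm, had 144 and 94.2 CPM in the D libraries, against 50.8, 49.6 and 74.3 CPM in the B libraries. Both D values of Ndufa11 exceeded every B value, and the difference of 1.02 (SE 0.22, adjusted p = 0.0277, edgeR) was the largest of any member. Ndufs7 rose by 0.96 (SE 0.24), Uqcrc1 by 0.77 (SE 0.17) and Sdhb by 0.67 (SE 0.15). Sdha, Uqcrc2 and Uqcrfs1 differed by 0.13, 0.16 and 0.09 and were not called. Ndufs1 alone lay below 0, at -0.25 (SE 0.13, adjusted p = 0.163, edgeR). The count of 25 was 0 when collagen replicate 1, 2 or 4 was left out and 4 when laminin replicate 2 was. Leaving out laminin replicate 4 gave 45, and laminin replicate 5 gave 43. Without collagen replicate 4, D was represented by replicate 5 alone, whose variation was taken to equal that of the other groups.

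**Figure D4:**
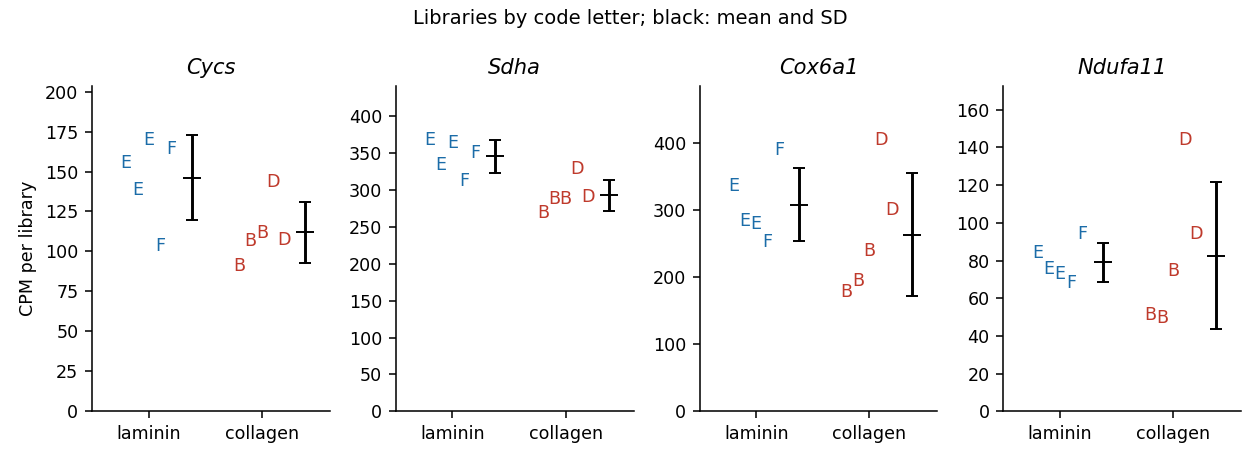
CPM of Cycs, Sdha, Cox6a1 and Ndufa11 in each library, laminin left (blue) and collagen right (red), each library drawn as its code letter, with the mean and SD of 5 libraries in black. For Cox6a1 and Ndufa11 the collagen D libraries lie above the B libraries, and the laminin E and F libraries are mixed.

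This difference between collagen libraries moved with transcript length. The D minus B median was 0.61 for the 35 members of up to 1000 nt (16 called), 0.57 for the 21 of 1000 to 2000 nt (8 called) and 0.28 for the 6 longer ones (1 called). Over all genes tested, the Spearman correlation of length with the D minus B difference was -0.66, and over the 62 members it was -0.35. With the laminin minus collagen difference, the correlation of length was 0.42 over all genes and 0.15 over the members. These correlations are across genes that share the same libraries and are given as a description. In the same libraries, other genes under 1 kb deviated from their mean by a median of 0.57 in collagen replicate 4 and 0.24 in replicate 5, against -0.26, -0.19 and 0.06 in collagen replicates 1 to 3. With an offset that removed each library's trend on transcript length and GC content, 2 of 62 members rose in D relative to B, against 0.955% of all genes (1.31% fell). They were Ndufv2 at 0.68 (adjusted p = 0.0446, edgeR) and Cox7b, a small subunit of complex IV, at 0.58 (adjusted p = 0.0464, edgeR). The member median was then 0.13, with 52 of 62 above 0, against 51.2% of all genes. At an unadjusted p under 0.05 (edgeR), 14 members rose and 0 fell, against 1166 and 1152 of all 10789 genes.

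**Figure D5:**
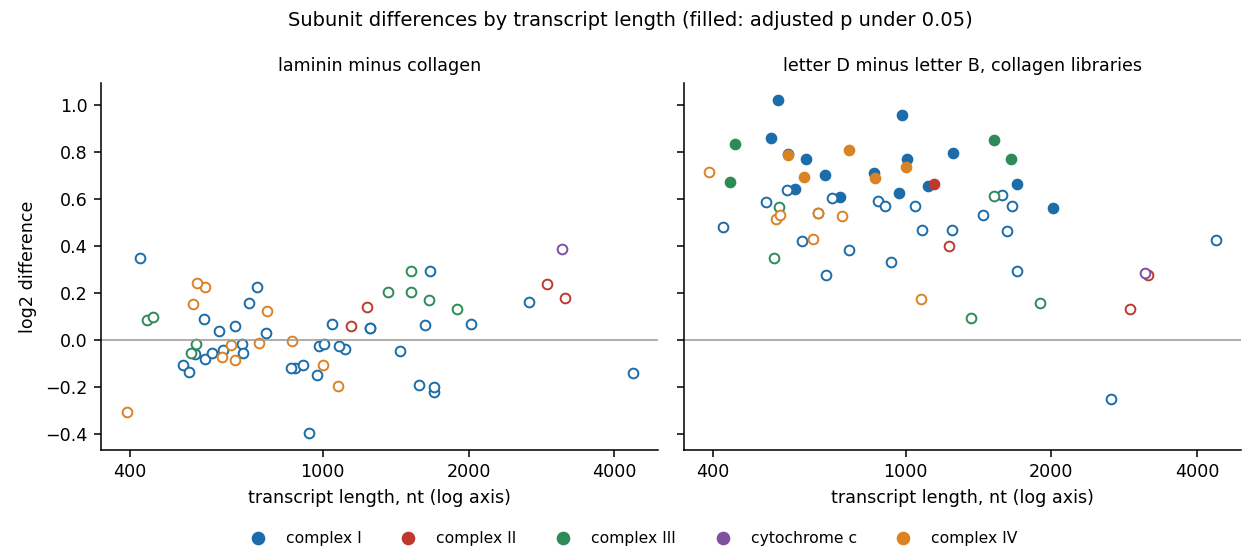
Log2 difference of each tested subunit against its transcript length in nt (log axis), for laminin minus collagen and for D minus B within collagen; filled points have an adjusted p under 0.05. In D minus B, 61 of 62 points lie above 0 and the 6 longest transcripts have a median of 0.28, while in laminin minus collagen 30 of 62 lie above 0 and 0 are filled.

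Within laminin, the libraries of letter F did not separate from those of letter E. The edgeR fit called 0 of 62 members, against 0% of all genes, with 0 at an unadjusted p under 0.05, and DESeq2 and limma-voom also called 0. The median difference, F minus E, was 0.06. For Ndufa11 the difference was 0.06, with 81.1 CPM on average in the F libraries and 77.5 CPM in the E libraries. The 2 F libraries lay at opposite ends of the laminin group. The members' mean log2 deviation was -0.22 in replicate 4 and 0.32 in replicate 5, and Ndufa11 had 68.0 and 94.2 CPM. The F mean therefore describes neither of its libraries well.

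Which collagen libraries were used set the direction of the matrix comparison. Against the 3 collagen libraries of letter B alone, 59 of 62 members lay above 0 in laminin, with a median of 0.27. None was called (edgeR, smallest adjusted p = 0.183), against 0.0456% of all genes higher and 0% lower. Against the 2 libraries of letter D alone, 56 of 62 lay below 0, with a median of -0.33, and 8 fell in laminin, against 7.96% of all genes lower and 10.9% higher. The 8 were complex I subunits: Ndufa7 and Ndufa11 at -0.62, Ndufv2 at -0.59, Ndufs7 at -0.56, Ndufa8 at -0.54, Ndufb4 at -0.52, Ndufb7 at -0.48 and Ndufs4 at -0.42 (adjusted p 0.022 to 0.0495, edgeR). Of these, Ndufv2 is the NADH-module partner named above and the others, Ndufs7 apart, are accessory. The all-gene medians of both comparisons were within 0.01 of 0.

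With the length and GC offset, the matrix comparison of all 10 libraries gave 5 members higher in laminin and 0 lower, against 0.806% of all genes higher and 0.287% lower. The 5 were Cox6a1 at 0.38 (adjusted p = 0.0114), Ndufa1 at 0.54 (0.0296), Ndufb10, an accessory subunit of the membrane arm, at 0.39 (0.0351), Ndufv1 at 0.38 (0.0476) and Cox4i1 at 0.29 (0.049), all by edgeR. The median member difference was 0.16, with 55 of 62 above 0, while that of all genes was -0.01 with 48.6% above 0. By complex the medians were 0.14 (31 of 36 above 0) in complex I, 0.22 (4 of 4) in complex II, 0.26 (9 of 9) in complex III and 0.17 (10 of 12) in complex IV. When libraries were left out singly, Cox6a1 passed in 9 of 10 such fits, and Ndufa1, Ndufb10, Ndufv1 and Cox4i1 in 3 of 10 each. The member count ran from 0, without collagen replicate 5 (Cox6a1 adjusted p = 0.0562, edgeR), to 10, without laminin replicate 4, and the median from 0.14 to 0.22. With the offset and without letter D, 0 members were called, against 0.155% of all genes higher and 0.0183% lower, and the median was 0.25. Without letter B, Cox6a1 and Cox8a were higher and Ndufv2 lower, against 2.94% and 2.73% of all genes, and the median was 0.09. Because the trend ignores the matrix, a matrix effect related to length or GC content would be removed with it.

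Building the complexes requires assembly factors, which insert cofactors and join modules without staying in the finished enzyme. Of 52 such genes listed, 49 were tested and 0 were called in laminin minus collagen by edgeR, DESeq2 or limma-voom, with 4 at an unadjusted p under 0.05 in each. Their median difference was -0.02, with 21 of 49 above 0. Against the collagen libraries of letter D alone, Coa3, Sdhaf2, Surf1, Cox19 and Coa4 fell in laminin (5 of 50 tested), against 7.96% of all genes lower. The smallest p-values were those of Tmem186 and Foxred1, both of complex I assembly. Tmem186 had 20.7 ± 3.98 CPM in laminin and 15.0 ± 1.91 CPM in collagen, a difference of 0.46 (SE 0.16, adjusted p = 0.295, edgeR). Foxred1 had 25.6 ± 2.27 CPM in laminin and 20.4 ± 2.63 CPM in collagen, a difference of 0.32 (SE 0.12, adjusted p = 0.338, edgeR). In D minus B, 3 of the 49 rose and 0 fell, near the 5.42% of all genes that rose. They were factors of complex IV: Surf1 by 0.63, Cox19 by 0.66 and Coa4 by 1.00 (adjusted p 0.0334, 0.0497 and 0.0463, edgeR). Sco2, a copper chaperone of complex IV, and Pet117 were listed at 0, and Cox16 was below the filter. Of 8 listed subunits and associated proteins outside the symbol rule, Ndufab1, Higd1a and Higd2a were tested. Their differences were -0.12, -0.11 and 0.02, and 0 were called by edgeR, DESeq2 or limma-voom, with 0 at an unadjusted p under 0.05. In D minus B, Higd2a, known from assembly of complex IV, rose by 0.77 (adjusted p = 0.0277, edgeR). It was 1 of these 3 genes, against the 5.42% of all genes that rose.

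Of 12 listed regulators of respiratory genes, edgeR called 0 in the matrix comparison, with 5 at an unadjusted p under 0.05. Limma-voom also called 0, and DESeq2 called Ppargc1a and Ppargc1b higher, against 158 of 14423 genes higher and 56 lower. Without letter D, edgeR called 0 of the 12. Without letter B it called Ppargc1a and Ppargc1b higher, against 10.9% of all genes higher. Ppargc1a and Ppargc1b encode the PGC-1 coactivators and had the largest differences. In D minus B within collagen they differed by -0.97 and -0.53 (adjusted p 0.0843 and 0.341, edgeR). Ppargc1a, the gene of PGC-1alpha, had 33.9 ± 12.1 CPM in laminin and 12.8 ± 4.83 CPM in collagen (SD, n = 5 each). Its difference was 1.40 (SE 0.29, adjusted p = 0.0807, edgeR), and with the length and GC offset it passed at 1.30 (adjusted p = 0.00763, edgeR). That offset fit called 0.806% of all genes higher. Ppargc1b differed by 1.09 (SE 0.30, adjusted p = 0.2, edgeR). Esrra, which encodes ERRalpha, had 126 ± 26.3 CPM in laminin and 85.4 ± 12.7 CPM in collagen, a difference of 0.56 (SE 0.15, adjusted p = 0.192, edgeR), and passed with the offset at 0.53 (adjusted p = 0.0444, edgeR). The promoter-binding factors differed less: Nrf1 by 0.12, Gabpa by -0.03, Gabpb1 by -0.24 and Yy1 by -0.22. Gabpa had 152 ± 11.9 CPM in laminin and 155 ± 45.4 CPM in collagen, and within collagen it was the regulator called in D minus B, where it fell by 0.63 (adjusted p = 0.0362, edgeR). Over all genes 10.4% fell in D minus B, so 1 of 12 regulators is near the background. Tfam, which packages mitochondrial DNA and activates its transcription, differed by -0.16. The hepatocyte marker sums were those given above, with ranges that overlapped only narrowly and 0 of 3 tested markers called. All 3 tested markers were higher in laminin, Alb by 0.91, Ttr by 0.95 and Hnf4a by 0.45 (unadjusted p 0.00945, 0.0348 and 0.0375, edgeR). Of the listed markers below the filter, Apoa1 leaned the other way, at 1.24 ± 0.379 CPM in laminin and 2.31 ± 1.12 CPM in collagen. Cps1 averaged 0.105 CPM in laminin and 0.065 CPM in collagen, and Cyp3a11 was at 0. The part of hepatocyte markers in the regulator values was not tested.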

How the data were processed

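The authors deposited whole-number read counts per gene symbol for 10 libraries, without normalization. Per the labels' protocols, stranded poly(A) libraries were made from column-purified RNA. The submitters' processing notes name the build GRCm38 (mm10) and the tool DESeq2. How reads were aligned and counted, with which annotation and strand setting, is not given in the sources used here.

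Genes were kept by the default filterByExpr rule (10789 of 18407) and scaled with TMM factors. Laminin minus collagen was tested with the edgeR 4.0.16 quasi-likelihood test (R 4.3.3, matrix as the only term, two-sided). Code letters were compared in a fit with the letter as the only term. Calls required a Benjamini-Hochberg adjusted p, over all genes, under 0.05. An SE is the log2 difference divided by the square root of its F statistic. CPM values use TMM-scaled totals. Intervals and limits from counts cover counting error only. Even the 2 most similar libraries differed beyond sampling noise (chi-square per degree of freedom 3.34), so all 10 were used.

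Transcript lengths, GC content and positions came from GENCODE M21 (GRCm38), matched by symbol for 18338 genes, using the longest principal transcript where one is marked. Sharing was counted over stretches of 50 bases. The offset removed, library by library, a spline trend of log2 CPM deviations on length and on GC content, with 5 degrees of freedom for each. Alternatives were DESeq2 1.42.0, limma-voom (limma 3.58.1), other scalings and filters, the replicate block, each library or code letter left out, and combinations of these with the offset, the last chosen after seeing the data. The steps were tested on simulated counts.

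The members, lists and tests were chosen with earlier results of these data known. Members named in the text were those with the smallest p and the highest level per kb in each complex, the core subunits, the paralogue groups and any member called. Members named for the letter comparisons or the offset, and the other genes named from lists, were chosen after their values were seen. Values of 1 tested member are not reported here by name; it is included in the fits and in the counts of members.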

Additional observations from a re-analysis of the deposited data

Results flagged for a closer look

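Of 66 groups of 5 libraries checked for a value far from the rest, 1 was marked, against 3.3 expected by chance at 5%. It was Ndufs4, the accessory subunit that stabilizes the NADH-binding module of complex I, in laminin replicate 3. That library had 64.6 CPM, while the nearest other laminin library had 72.4 CPM and the highest 75.6 CPM.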

How the results depend on the processing

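The matrix comparison called 0 members under DESeq2, limma-voom, the other scalings and filters, the replicate block and each library left out, 8 without letter B and 5 with the offset for length and GC. With the offset, leaving out collagen replicate 1, 2 or 3 gave 1, as did laminin replicate 2 or 3. Leaving out collagen replicate 4 gave 5, collagen replicate 5 gave 0, laminin replicate 5 gave 2, laminin replicate 1 gave 7 and laminin replicate 4 gave 10. It was also 3 without letter B, 5 with DESeq2 size factors and 0 with the replicate block or without letter D. The members' median moved to -0.33 without letter B and stayed within the spread between libraries otherwise. Without letter D it was 0.27, with 59 of 62 above 0, which was only just within that spread. Of the medians by complex over the settings, 4 moved and 76 did not. The count over all genes, 16, was 214 by DESeq2, 29 with no filter, 118 with the offset, 5 without letter D, 2083 without letter B and 0 with the replicate block, and ran from 0 to 64 when single libraries were left out. The D minus B count, 25, was 39 with no filter and 2 with the offset, and ran from 0 to 45 when single libraries were left out. The replicate numbers did not pair the samples: correlations of same-numbered libraries' deviations were -0.306, 0.261, -0.113, -0.327 and 0.483, and with the block the members' median was 0.04. Letter contrasts could not be fitted with the block. Several members changed sign, none of them called in either fit except where stated above. Limma-voom gave 0.10 for Ndufs7 and 0.034 for Ndufs8, and the block gave 0.086 and 0.035 for the same genes and 0.0016 for Uqcrh. The offset gave 0.18 for Uqcrh, 0.13 for Cox6b1, 0.10 for Cox7a2, 0.15 for Ndufs7 and 0.15 for Ndufs8. Without letter D, Uqcrh had 0.24, Cox6b1 0.24, Cox7a1 0.013, Cox7a2 0.15, Ndufs7 0.43, Ndufs8 0.34 and Ndufv2 0.10. Without letter B, Cox8a had -0.081, Cox6a1 -0.22, Cyc1 -0.071, Ndufv1 -0.049, Ndufa4 -0.23, Sdhc -0.0084, Sdhd -0.11, Cox4i1 -0.33, Ndufs3 -0.28 and Sdhb -0.33. When single libraries were left out, the differences ran from -0.036 to 0.18 for Ndufa4, -0.017 to 0.35 for Cox4i1, -0.063 to 0.22 for Ndufs3, -0.053 to 0.21 for Sdhb, -0.14 to 0.13 for Uqcrh, -0.21 to 0.12 for Cox6b1, -0.19 to 0.072 for Cox7a2, -0.21 to 0.24 for Ndufs7 and -0.16 to 0.19 for Ndufs8. The cause of these changes was not tested. Depth limits the paralogues at or near 0, whose limit was 0.369 to 0.678 CPM.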
